A study of Mus musculus with 6 samples.

Results

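The transcripts of 10 cytokine genes that dendritic cells are known for were followed in mouse immature dendritic cells exposed to hydrogen peroxide (H2O2). The genes were Il1a, Il1b, Il1rn, Tnf, Il6, Il10, Il12b, Il23a, Il18 and Tgfb1. They were taken by name, and all 10 were found by their NCBI Gene numbers among the 17567 rows of the count files. The H2O2 group received 100 µM H2O2 over 24 h, which the study used to imitate reactive oxygen species. The control group was labelled control, with no handling time of its own in the labels. Bone marrow of male C57BL/6 mice aged 6 weeks gave the cells of both groups. They grew with GM-CSF (20 ng/mL), IL-4 (10 ng/mL) and 10% fetal serum, were taken on day 6 and were purified with beads against CD11c. Nothing in the labels ties a sample to its own mouse or culture. A p-value here covers the scatter of these libraries alone, and that scatter could be technical.

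Each group had 3 samples in the labels, but imDC_H2O2_r2 repeated imDC_H2O2 in all 17567 rows and was counted once, as imDC_H2O2. The H2O2 libraries are called imDC_H2O2 and imDC_H2O2_r1 below, and the control libraries imDC, imDC_r1 and imDC_r2, after the file headers. The 5 totals lay between 16232604 and 16672491 estimated counts. The libraries fell into 2 sets. In imDC_H2O2 and imDC, here set A, 4 Y-linked genes summed to 96.4 and 106 CPM (counts scaled to library size), and in imDC_H2O2_r1, imDC_r1 and imDC_r2, here set B, to at most 0.427 CPM, although all mice were labelled male. H2O2 was therefore compared with control within the sets, imDC_H2O2 with imDC and imDC_H2O2_r1 with imDC_r1 and imDC_r2. These sets are no groups of the study.

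Cytokines are secreted proteins by which a dendritic cell instructs other immune cells. The interleukin-1 (IL-1) alpha and beta proteins share a receptor that starts inflammation, and the product of Il1rn occupies the same receptor without activating it. The proteins encoded by Tnf and Il6 spread the acute response, the p40 chain from Il12b joins a partner chain to form IL-12 or IL-23 and so steers T cells, and IL-10 and TGF-beta 1 restrain immune responses. Immature dendritic cells are known to make little IL-12 and IL-6 until a microbial or inflammatory signal matures them.

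Of the 10 genes, 9 had enough counts to be tested, and Il10 did not. Il1rn was the only member that passed the test of H2O2 against control, and it rose 1.35-fold. No member passed in the downward direction. Among all 12209 genes tested, 3.93% were called higher and 4.61% lower by the same rule, an adjusted p of at most 0.05 in edgeR's quasi-likelihood test with a term for the set. Called in either direction were 8.54% of all tested genes. Without the set term edgeR called 0 genes, members included, and 6.99% of the genes had an unadjusted p under 0.05. In all 9 tested members the levels of the H2O2 and control libraries overlapped. Both H2O2 libraries lay above all controls in 13% of the tested genes and below them in 10.7%. Read within the sets, Il1rn and Il1a lay above their controls in both sets, Il18 lay below in both, and the other 6 were mixed. In 28.5% of all tested genes H2O2 lay above control in both sets, and in 28% below.

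**Figure D1:**
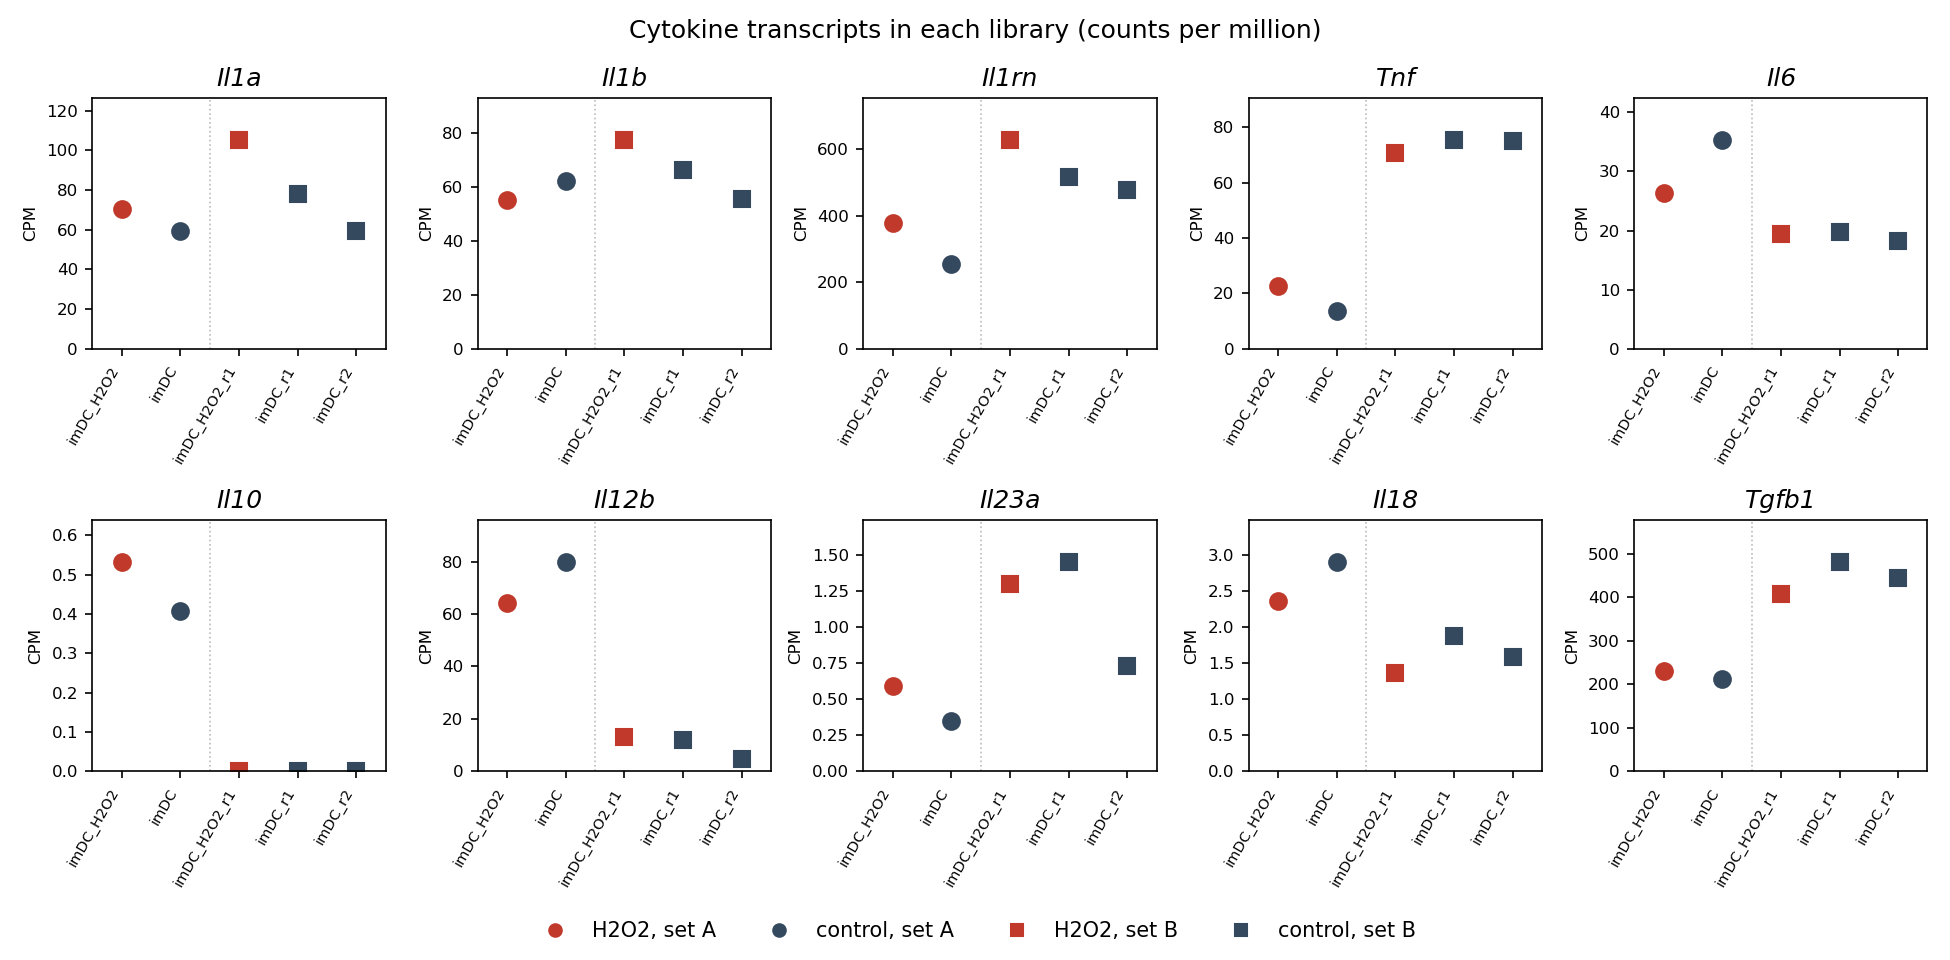
CPM of each cytokine gene (y axis, from 0) in the 5 libraries (x axis), with H2O2 in red, control in dark blue, circles for set A, squares for set B and a dotted line between the sets. Each point is 1 library. Tnf and Tgfb1 stand low, and Il12b stands high, in both libraries of set A whatever the treatment.

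Il1rn encodes the IL-1 receptor antagonist, in secreted and intracellular forms that start from different first exons. The files give 1 count for the whole gene. It measured 378 CPM in imDC_H2O2 and 629 CPM in imDC_H2O2_r1, against 255 CPM in imDC, 516 CPM in imDC_r1 and 477 CPM in imDC_r2. Each H2O2 library was above the controls of its own set, while imDC_H2O2 was below both controls of set B. The ratio was 1.48 for imDC_H2O2 over imDC (95% counting interval 1.43 to 1.54), 1.22 over imDC_r1 (1.18 to 1.25) and 1.32 over imDC_r2 (1.28 to 1.36) for imDC_H2O2_r1. The fitted log2 change was 0.44 ± 0.082 (SE; edgeR adjusted p = 0.0284). The group means were 504 ± 177 CPM with H2O2 (SD, n = 2) and 416 ± 141 CPM in control (SD, n = 3), so the change was smaller than the spread of either group, and it passed the test within the sets. The estimate stayed positive in all 11 alternatives, some of which rest on the same libraries, and the call held in 6 of them. Among those that lost it were the fits without the set term (log2 0.27, adjusted p = 0.906 by edgeR), without a filter on low counts (0.44, 0.0592), without imDC_r2 (0.42, 0.102) and without imDC_H2O2_r1 (0.57, 0.126).

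The promoters of the members that led the comparison are shown as the 250 bases before a RefSeq start site (GRCm38.p6). Capitals mark matches, on either strand, to the letters GGGA, any 4 bases and CC of NF-kB, the factor that switches on many cytokine genes, and TGANTCA of AP-1, the dimer of Fos and Jun proteins. The motif TGACNNNGC of the antioxidant response element, bound by NRF2, was also searched and was found in none of the 8 members with a promoter in the table. Of 32851 promoter windows of this length in all genes, 17.6% held the NF-kB letters, 6.75% the AP-1 letters and 10.2% the antioxidant letters. Il1rn has 3 start sites in the table. Starts 1 and 3 are printed, because the window of start 2 overlaps that of start 3. Start 1 held matches to both NF-kB (GGGAGTGGCC) and AP-1 (TGAGTCA), and starts 2 and 3 held none. Il1a held an AP-1 match (TGACTCA) from 12 to 6 bases before the start used. The RefSeq span of Il1a reaches to chr2:129310186, inside the printed window, so the match lies within that span and an earlier start exists. Il1rn is shown as the called member and Il1a for its like change.
Il1rn start 1, chr2:24336610-24336859, plus strand: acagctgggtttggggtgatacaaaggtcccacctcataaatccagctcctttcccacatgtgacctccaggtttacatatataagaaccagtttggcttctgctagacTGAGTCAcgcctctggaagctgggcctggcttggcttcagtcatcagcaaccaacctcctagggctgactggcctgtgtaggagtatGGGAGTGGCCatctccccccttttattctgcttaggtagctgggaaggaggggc
Il1rn start 3, chr2:24345121-24345370, plus strand: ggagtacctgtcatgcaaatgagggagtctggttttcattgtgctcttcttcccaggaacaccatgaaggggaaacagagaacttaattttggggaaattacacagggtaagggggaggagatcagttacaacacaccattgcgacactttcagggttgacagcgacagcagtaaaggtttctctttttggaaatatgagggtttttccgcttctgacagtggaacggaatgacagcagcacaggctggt
Il1a, chr2:129309973-129310222, minus strand: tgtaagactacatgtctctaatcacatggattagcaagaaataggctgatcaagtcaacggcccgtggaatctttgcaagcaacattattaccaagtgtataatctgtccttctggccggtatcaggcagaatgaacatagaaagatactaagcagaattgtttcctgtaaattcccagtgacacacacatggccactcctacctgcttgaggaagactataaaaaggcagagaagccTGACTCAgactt

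Il1a encodes IL-1 alpha, a form that is active without cleavage and acts as an alarm when cells are damaged. It measured 70.4 CPM in imDC_H2O2 and 105 CPM in imDC_H2O2_r1, against 59.2 CPM in imDC, 77.8 CPM in imDC_r1 and 59.2 CPM in imDC_r2. Both H2O2 libraries were above the controls of their own set, and imDC_r1 was above imDC_H2O2. The ratio was 1.19 in set A (95% counting interval 1.09 to 1.29), and in set B 1.35 over imDC_r1 (1.26 to 1.46) and 1.78 over imDC_r2 (1.64 to 1.93). The fitted log2 change was 0.47 ± 0.135 (SE; 95% interval 0.15 to 0.79), as large as that of Il1rn but with a wider error, and it missed the threshold (edgeR adjusted p = 0.0797). DESeq2 called it (log2 0.45, adjusted p = 0.039).

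Il1b, whose product needs cleavage by caspase-1, lies 54382 bases from Il1a on chromosome 2 (GRCm38.p6). It measured 55.2 CPM in imDC_H2O2 and 77.5 CPM in imDC_H2O2_r1, against 62.2 CPM in imDC, 66.1 CPM in imDC_r1 and 55.5 CPM in imDC_r2. In set A imDC_H2O2 was below imDC and close to imDC_r2, the lower control of set B, and imDC_H2O2_r1 was above every other library. The test between the sets did not call this difference (edgeR adjusted p = 0.252). The ratio was 0.886 in set A (95% counting interval 0.811 to 0.968), and in set B 1.17 (1.08 to 1.27) and 1.39 (1.28 to 1.52). The fitted log2 change was 0.13 ± 0.134 (SE; 95% interval -0.19 to 0.45, edgeR adjusted p = 0.575). In set B the ratios of Il1a and Il1b all lay above 1, while in set A only that of Il1a did.

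Per length of transcript, the antagonist outweighed both agonists in every library. The level of Il1rn, in CPM per kilobase, over the sum of Il1a and Il1b was 2.004 in imDC_H2O2 and 2.30 in imDC_H2O2_r1, against 1.36 in imDC, 2.37 in imDC_r1 and 2.72 in imDC_r2. It was higher with H2O2 in set A and lower with H2O2 in set B, so the balance showed no common direction. The level of Il1a over that of Il1b was 0.876 and 0.933 in imDC_H2O2 and imDC_H2O2_r1, against 0.653, 0.808 and 0.732 in imDC, imDC_r1 and imDC_r2. That ratio was the only one of the 3 computed between members in which both H2O2 libraries lay beyond every control, and it was picked after its values were seen. The smallest p that an exact permutation test allows for 2 libraries against 3, with the sets ignored, is 0.1. Permutation within the sets has fewer arrangements and so a larger smallest p.

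**Figure D2:**
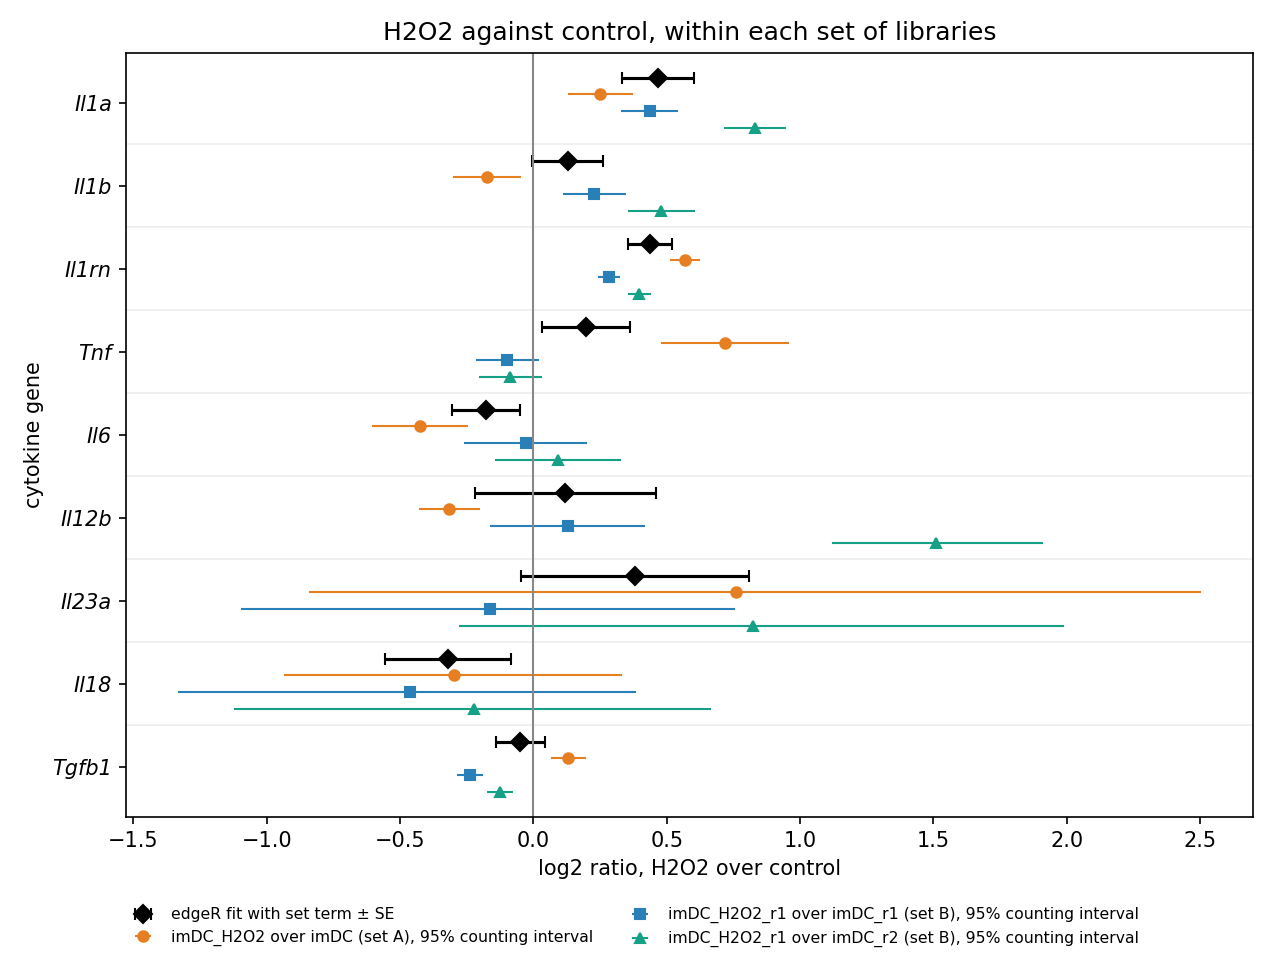
Log2 ratio of H2O2 over control (x axis) for the 9 tested cytokine genes (y axis). Black diamonds are the edgeR estimate with the set term and its SE, and coloured points are single pairs of libraries within a set with 95% intervals that cover counting error only. The 3 pairs of Il1rn and of Il1a lie right of 0, those of Il18 lie left of it, and those of the other 6 genes lie on both sides.

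Tnf, which encodes the membrane-bound and shed cytokine TNF, measured 22.6 CPM in imDC_H2O2 and 70.6 CPM in imDC_H2O2_r1, against 13.8 CPM in imDC, 75.5 CPM in imDC_r1 and 74.9 CPM in imDC_r2. Set A held both low values, and the 2 set B controls were nearly equal. The ratio was 1.64 in set A (95% counting interval 1.39 to 1.94), and in set B 0.935 (0.861 to 1.02) and 0.942 (0.868 to 1.02). The fitted change was log2 0.20 ± 0.166 (SE; 95% interval -0.20 to 0.59, edgeR adjusted p = 0.483). Tnf gave the lowest p of the 9 members for a difference of the H2O2 effect between the sets, by a log2 of 0.81 ± 0.134 (A minus B), and it missed the threshold (edgeR adjusted p = 0.0759).

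Il6 encodes interleukin-6, an acute-phase cytokine. It measured 26.3 CPM in imDC_H2O2 and 19.4 CPM in imDC_H2O2_r1, against 35.3 CPM in imDC, 19.8 CPM in imDC_r1 and 18.2 CPM in imDC_r2. The ratio was 0.745 in set A (95% counting interval 0.657 to 0.843), while both ratios in set B, 0.980 and 1.07, had intervals that included 1. The fitted change was log2 -0.18 ± 0.129 (SE; 95% interval -0.48 to 0.13, edgeR adjusted p = 0.415).

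Il12b was the member that varied most between libraries. It measured 64.2 CPM in imDC_H2O2 and 13.02 CPM in imDC_H2O2_r1, against 79.9 CPM in imDC, 11.9 CPM in imDC_r1 and 4.57 CPM in imDC_r2. The 2 controls of set B already differed 2.60-fold, imDC_r1 over imDC_r2 (95% counting interval 1.99 to 3.44). The treatment ratio in set B was therefore 1.09 (0.894 to 1.34) over imDC_r1 but 2.85 (2.17 to 3.76) over imDC_r2, and in set A it was 0.804 (0.742 to 0.871). The fitted change was log2 0.12 ± 0.340 (SE; 95% interval -0.69 to 0.93, edgeR adjusted p = 0.852), so changes of either sign up to those bounds were not distinguishable. Without imDC_r2 the estimate was -0.14.

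The promoters of Tnf, Il6 and Il12b are shown because these genes differed between the sets in opposite directions. Il6 held an AP-1 match and overlapping NF-kB matches on both strands, GGGATTTTCC and GGATTTTCCC, between 44 and 34 bases before its start. Those of Tnf and Il12b held none of the 3 motifs in these letters. Tgfb1 also held an NF-kB match (GGGACCCCCC), and Il1b and Il18 held none. In all, the 8 members found in the promoter table had 10 start windows, of which 3 held the NF-kB letters and 3 the AP-1 letters, beside 17.6% and 6.75% of all windows. The promoters of Il10 and Il23a were not used here.
Tnf, chr17:35202008-35202257, minus strand: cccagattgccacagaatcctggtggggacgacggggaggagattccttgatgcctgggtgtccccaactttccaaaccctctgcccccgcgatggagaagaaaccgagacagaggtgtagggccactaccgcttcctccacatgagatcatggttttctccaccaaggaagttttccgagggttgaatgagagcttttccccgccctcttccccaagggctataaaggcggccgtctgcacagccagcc
Il6, chr5:30012864-30013113, plus strand: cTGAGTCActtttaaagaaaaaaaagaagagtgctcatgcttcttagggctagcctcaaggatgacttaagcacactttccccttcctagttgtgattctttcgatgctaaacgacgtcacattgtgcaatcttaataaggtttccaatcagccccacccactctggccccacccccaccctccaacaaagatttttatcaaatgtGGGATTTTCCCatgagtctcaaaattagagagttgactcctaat
Il12b, chr11:44399813-44400062, plus strand: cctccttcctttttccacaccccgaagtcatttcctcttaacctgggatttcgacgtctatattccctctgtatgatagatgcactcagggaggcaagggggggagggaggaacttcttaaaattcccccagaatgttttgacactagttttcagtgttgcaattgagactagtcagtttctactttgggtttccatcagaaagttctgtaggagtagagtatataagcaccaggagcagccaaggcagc

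Il23a, the p19 chain that pairs with p40 to form IL-23, was scarce. Its counts were 10 and 20 in imDC_H2O2 and imDC_H2O2_r1, against 6, 24 and 12 in imDC, imDC_r1 and imDC_r2. All 3 within-set ratios had counting intervals that included 1, the widest from 0.558 to 5.68 in set A. The fitted change was log2 0.38 ± 0.427 (SE; edgeR adjusted p = 0.608), and no difference was detectable at this depth. Il12a, the p35 chain that makes IL-12 with p40, was also low, with 3.31 and 3.37 CPM with H2O2 and 2.67, 4.11 and 3.23 CPM in imDC, imDC_r1 and imDC_r2.

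Il10, the anti-inflammatory cytokine, was the member that did not pass the filter on low counts. Its counts were 9 in imDC_H2O2 and 0 in imDC_H2O2_r1, against 7 in imDC and 0 in both imDC_r1 and imDC_r2. All reads lay in set A. With no filter on low counts, Il10 was called between the sets (edgeR adjusted p = 0.0477), in a fit that rests on 3 libraries at 0. A count of 0 allows up to 3 counts, or between 0.181 and 0.194 CPM in the libraries of set B, and the values of set A were 0.532 CPM in imDC_H2O2 and 0.407 CPM in imDC. The ratio within set A was 1.31 with a 95% counting interval from 0.433 to 4.13.

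Il18, an IL-1 relative that drives interferon-gamma and is also cleaved by caspase-1, had low counts as well. It measured 2.36 CPM in imDC_H2O2 and 1.36 CPM in imDC_H2O2_r1, against 2.91 CPM in imDC, 1.87 CPM in imDC_r1 and 1.59 CPM in imDC_r2. Each H2O2 library was below the controls of its set, with ratios of 0.814, 0.726 and 0.858 whose counting intervals all included 1. The fitted change was log2 -0.32 ± 0.236 (SE; 95% interval -0.88 to 0.24, edgeR adjusted p = 0.424).

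Tgfb1 encodes TGF-beta 1, which is secreted in a latent form and favours regulatory T cells. It measured 231 CPM in imDC_H2O2 and 408 CPM in imDC_H2O2_r1, against 211 CPM in imDC, 481 CPM in imDC_r1 and 445 CPM in imDC_r2. The ratios lay on opposite sides of 1 in the sets, a difference that the test between sets did not call (edgeR adjusted p = 0.328). The ratio was 1.09 in set A (95% counting interval 1.05 to 1.14), and in set B 0.848 (0.820 to 0.876) and 0.917 (0.886 to 0.948). The fitted change was log2 -0.05 ± 0.092 (SE; 95% interval -0.27 to 0.17, edgeR adjusted p = 0.769).

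Sorted per length of transcript, Il1rn and Tgfb1 formed the top pair in all 5 libraries. Il1rn stood at 153 and 254 CPM per kilobase in imDC_H2O2 and imDC_H2O2_r1, against 103, 209 and 193 CPM per kilobase in imDC, imDC_r1 and imDC_r2, and Tgfb1 at 106 and 188 against 97.1, 221 and 205. Il1rn was above Tgfb1 in both H2O2 libraries and in imDC, and below it in imDC_r1 and imDC_r2, so the order within the pair did not hold across libraries. Il1a and Il1b came next in set A together with Il12b, at 30.0 to 45.9 CPM per kilobase, and in set B together with Tnf, at 30.0 to 57.1. Il12b exceeded Tnf 2.39-fold in imDC_H2O2 and 4.89-fold in imDC, but was 0.155 of it in imDC_H2O2_r1, 0.133 in imDC_r1 and 0.0515 in imDC_r2. Il6 lay between 7.75 and 15.1 CPM per kilobase, Il18 between 1.54 and 3.28 and Il23a between 0.256 and 1.07. These ranges do not overlap, but Il6 and Tnf exchanged places within set A, and Il12b stood below Il6 in set B.

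**Figure D3:**
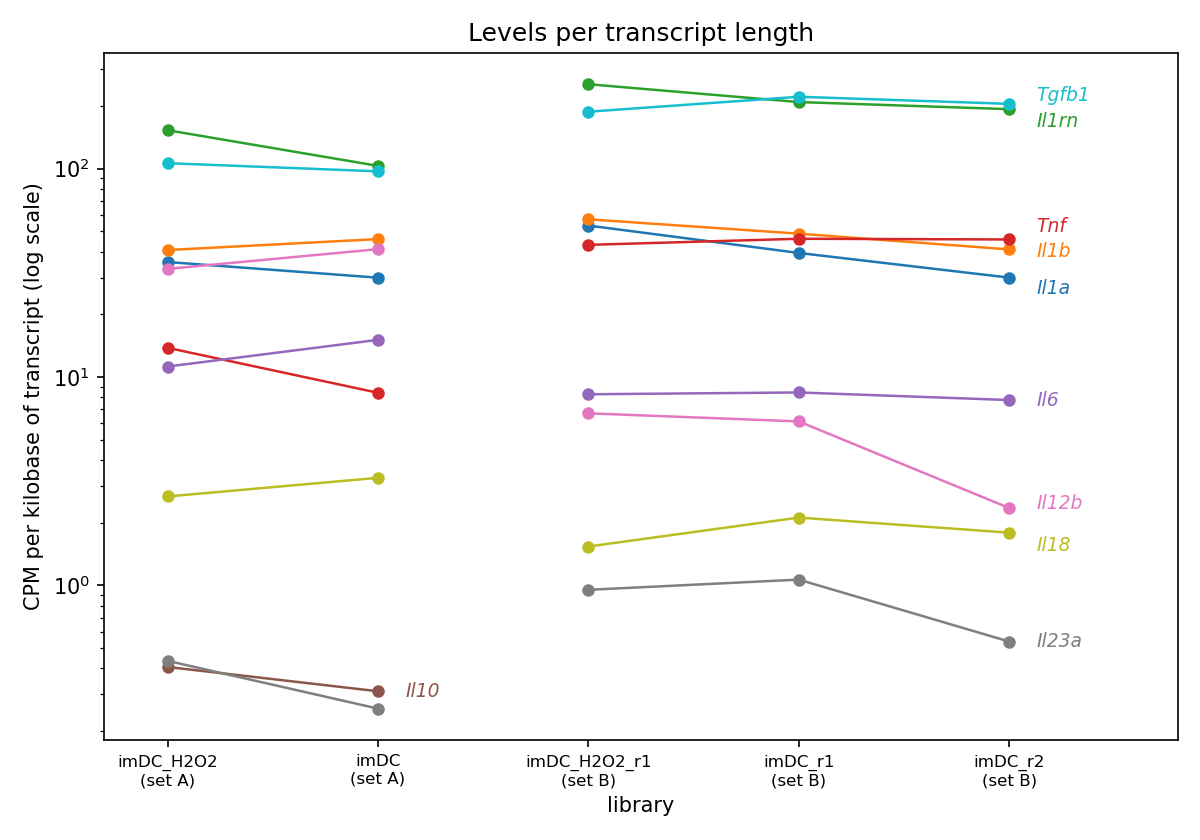
Level of each cytokine gene in CPM per kilobase of its longest coding transcript (y axis, log scale) in each library (x axis), with lines joining libraries of 1 set. Il1rn and Tgfb1 are the upper pair in every library, and Il12b and Tnf exchange ranks between the sets. Il10 has no points in set B, where its count was 0.

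Most members differed more between the sets than between H2O2 and control. In 8 of the 9 tested members the log2 difference of set A minus set B was larger in size than that of H2O2 minus control, with medians of 0.86 and 0.20 in size over the members and 0.27 and 0.17 over all tested genes. Lower in set A were Tnf by log2 -2.07 ± 0.177, Tgfb1 by -0.998 ± 0.095 and Il1rn by -0.86 ± 0.085 (SE; edgeR adjusted p of 3e-04, 4.4e-04 and 5.06e-04). Higher in set A were Il12b by log2 2.87 ± 0.328, Il6 by 0.71 ± 0.126 and Il18 by 0.76 ± 0.229 (SE; edgeR adjusted p of 9.44e-04, 0.0058 and 0.0389). The call for Il18 was not made by DESeq2 (adjusted p = 0.282), with no filter on low counts (edgeR adjusted p = 0.0526) or with any 1 library left out, and that for Il6 was lost without imDC. Among all tested genes, 16.9% were called lower and 19.1% higher in set A.

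The effect of H2O2 did not differ between the sets by the threshold in any of the 9 members (edgeR, treatment by set term with 1 residual degree of freedom). At an unadjusted p under 0.05 there were 4, namely Tnf, Il1b, Tgfb1 and Il6, where 13.7% of all tested genes reached that level and 0.0164% the adjusted threshold. DESeq2 gave an adjusted p only for Il1a, Il1rn and Tgfb1, called none of them, and gave Tnf an unadjusted p of 0.0225. With so few libraries this test could miss real differences between the sets.

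**Figure D4:**
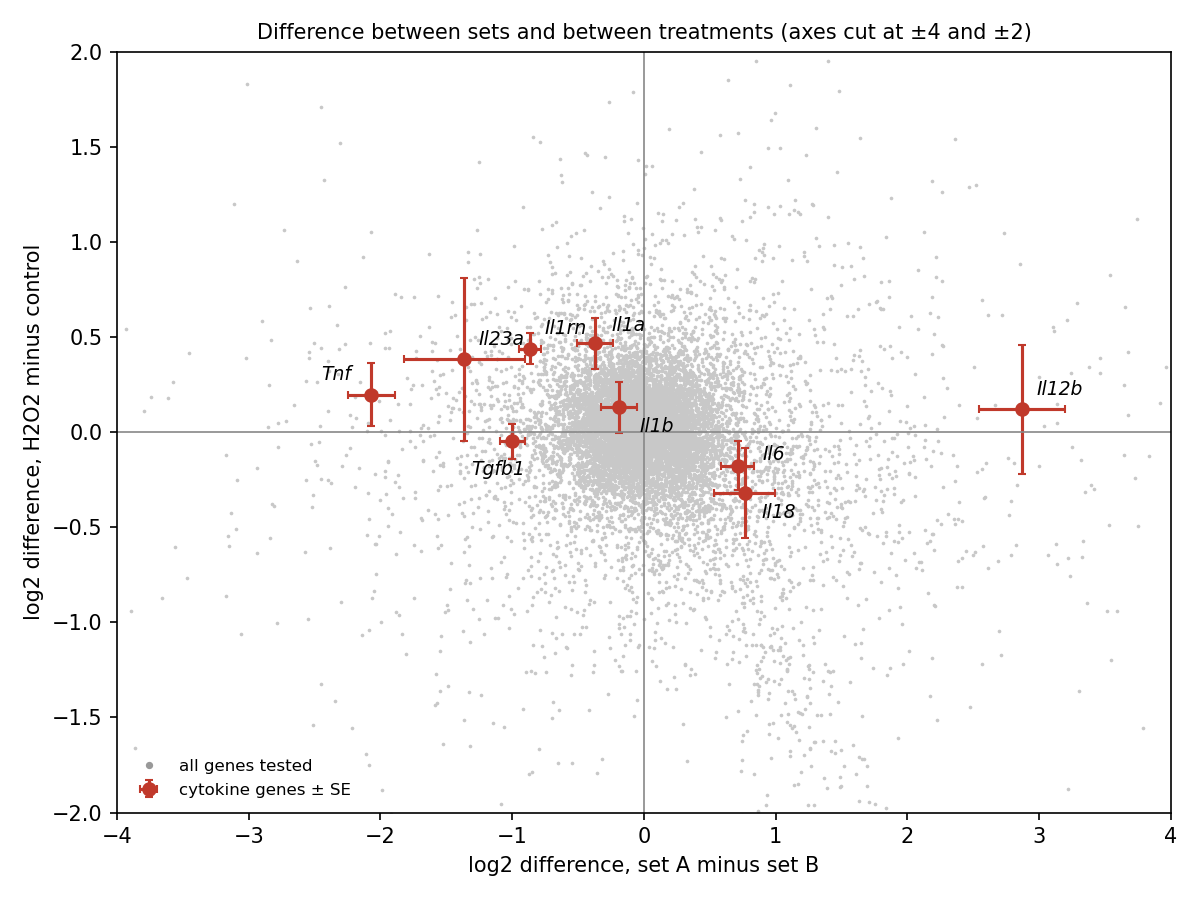
Log2 difference of set A minus set B (x axis) and of H2O2 minus control (y axis), both from the same edgeR fit, for all tested genes (grey) and for the 9 cytokine genes (red, ± SE), with axes cut at ±4 and ±2. The cytokine genes spread from -2.07 (Tnf) to 2.87 (Il12b) on the x axis but only from -0.32 to 0.47 on the y axis.

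Genes that act with these cytokines were read in the same fit, from lists chosen for their role. Without imDC_H2O2_r1 the treatment effect rests on imDC_H2O2 against imDC alone. The calls in these lists could therefore not be shown to hold without that library. Of 24 tested genes for processing, receptors and signalling of the IL-1 family, Capn2, a calpain protease, rose (log2 0.33 ± 0.072 SE, edgeR adjusted p = 0.0419), and Il18r1 and Il1r2 fell. Il18r1, a chain of the IL-18 receptor, measured 23.2 CPM in imDC_H2O2 and 7.45 CPM in imDC_H2O2_r1, against 61.3 CPM in imDC, 14.1 CPM in imDC_r1 and 16.8 CPM in imDC_r2 (log2 -1.24 ± 0.134, edgeR adjusted p = 0.0114). It was lower with H2O2 within each set. Il1r2, a decoy receptor that binds IL-1 without signalling, measured 10.1 CPM in imDC_H2O2 and 32.3 CPM in imDC_H2O2_r1, against 13.8 CPM in imDC, 61.3 CPM in imDC_r1 and 76.2 CPM in imDC_r2 (log2 -0.87 ± 0.170, edgeR adjusted p = 0.0315). The H2O2 values of Il1r2 were again the lower ones within each set. Not called were Capn1, the most abundant gene of the list (log2 0.03 ± 0.075), the signalling receptor gene Il1r1 (-0.33 ± 0.097), the inflammasome sensor gene Nlrp3 (-0.15 ± 0.083) and Casp1, for caspase-1 (0.16 ± 0.073). The list's median was log2 0.01, as it was over all tested genes. Called in either direction were 12.5% of the list, beside 8.54% of all tested genes.

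Of 14 tested genes for TNF release, receptors and signalling, Traf1, an adaptor of TNF receptors, fell (log2 -0.33 ± 0.066, edgeR adjusted p = 0.0331) and none rose. Adam17, the protease that sheds TNF, stood at 0.17 ± 0.071 and the receptor gene Tnfrsf1b, the most abundant, at 0.26 ± 0.094, both not called. Of 21 partners, receptors and signalling genes of the IL-6, IL-10 and IL-12 families, Il6st, the shared receptor chain gp130, rose and Stat4, a transducer of IL-12 signals, fell. Il6st measured 285 CPM in imDC_H2O2 and 179 CPM in imDC_H2O2_r1, against 215 CPM in imDC, 137 CPM in imDC_r1 and 125 CPM in imDC_r2 (log2 0.43 ± 0.071, edgeR adjusted p = 0.024). Stat4 measured 125 CPM in imDC_H2O2 and 34.4 CPM in imDC_H2O2_r1, against 248 CPM in imDC, 58.7 CPM in imDC_r1 and 65.1 CPM in imDC_r2 (log2 -0.92 ± 0.083, edgeR adjusted p = 0.00776). Both H2O2 libraries were beyond the controls of their own set in Il6st and in Stat4. The kinase gene Jak2, the most abundant of this list, stood at log2 -0.23 ± 0.091 and was not called. None of 24 tested genes of TGF-beta activation and signalling was called, and the most abundant, Thbs1, stood at 0.22 ± 0.088. None of 11 genes of cytokine mRNA decay and stability was called either. Zfp36, which destabilizes Tnf mRNA, stood at -0.10 ± 0.076 and its relative Zfp36l1, the most abundant, at -0.30 ± 0.119. The medians of these lists were log2 0.04 for TNF, -0.06 for the IL-6, IL-10 and IL-12 families, 0.07 for TGF-beta and 0.10 for mRNA decay. Called in either direction were 7.14% of the TNF list and 9.52% of the IL-6, IL-10 and IL-12 list, near the 8.54% of all tested genes.

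Among 32 tested transcription factor genes and regulators that act on cytokine genes, 5 rose and 2 fell, with a median of log2 -0.12. Together 21.9% of them were called, beside 8.54% of all tested genes. The AP-1 members Jun and Fos rose by log2 0.49 ± 0.081 and 0.59 ± 0.106. Their relatives Junb (-0.14 ± 0.082), Fosl2 (-0.16 ± 0.065), Batf (-0.15 ± 0.142) and Batf3 (-0.30 ± 0.098) had negative estimates and were not called. The stress-induced Atf3 rose by 0.61 ± 0.086, Maf by 1.145 ± 0.217 at a mean of 3.07 CPM, and Cebpb by 0.38 ± 0.084. Relb, an NF-kB subunit of maturing dendritic cells, and Irf8, a dendritic cell factor that acts on Il12b, fell, with log2 changes of -0.38 ± 0.079 and -0.45 ± 0.069. Both were called higher in set A, by log2 1.23 and 1.32, as were 19.1% of all tested genes. The most abundant of these genes, Bhlhe40, stood at log2 -0.26 ± 0.068 and was not called. Of 45 other cytokine genes listed, 36 had a row and 21 were tested, with a median of log2 -0.23. Inhba, for an activin chain, and Tnfsf14 (log2 1.06 ± 0.236) rose, and Pdgfb (log2 -0.74 ± 0.155) fell. Tnfsf14 averaged only 2.44 CPM, with 0.828 CPM in imDC_H2O2 and 0.407 CPM in imDC (edgeR adjusted p = 0.0418). Inhba measured 359.9 CPM in imDC_H2O2 and 737 CPM in imDC_H2O2_r1, against 233 CPM in imDC, 449 CPM in imDC_r1 and 374 CPM in imDC_r2 (log2 0.75 ± 0.099, edgeR adjusted p = 0.0175). Spp1, for osteopontin, was the most abundant of them at log2 0.15 ± 0.079, not called. Of the 21 tested other cytokine genes, 14.3% were called in either direction, beside 8.54% of all tested genes. Il3, Il34 and Ifnb1 had no count in any library.

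Likeness to a member was measured as the root mean square difference of centred log2 levels across the 5 libraries, among genes averaging 10 CPM or more, and the 3 nearest genes were taken. For Il1rn these were Map6, Plk2 and Chchd10, at 0.0332 to 0.0598 on the log2 scale, and for Il1a Zbp1, Rbms1 and Zmym6, at 0.0733 to 0.0872. For Tnf they were Slfn1, Ppic and Fcrlb, at 0.106 to 0.180, and for Il12b Rsad2, Saa3 and Sned1, at 0.258 to 0.379. The nearest gene was Cyp20a1 to Il1b, Ube2e3 to Il6, Gbp6 to Il23a, Lmo4 to Il18 and Pde1b to Tgfb1. All these comparisons share the same 5 libraries and their 2 sets.

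Markers of the labelled and of other cell types were measured beside the cytokines. The CD11c gene Itgax measured 1496 CPM in imDC_H2O2 and 2177 CPM in imDC_H2O2_r1, against 1473 CPM in imDC, 2154 CPM in imDC_r1 and 1940 CPM in imDC_r2, and all 16 dendritic cell markers had counts. They summed to 6731 and 8679 CPM with H2O2 against 8439 to 10102 CPM in control, and 8 of 15 tested fell. Markers of mature dendritic cells fell in 7 of 12 cases with H2O2, where 4.61% of all tested genes fell. Called higher in set A were 10 of the 12, beside 19.1% of all tested genes, and Cd80 and Ccl17 were called lower there. The 12 markers summed to 10001 and 7794 CPM in imDC_H2O2 and imDC_H2O2_r1, against 11087, 9367 and 9618 CPM in imDC, imDC_r1 and imDC_r2. Ccl22 alone, which was not called with H2O2, gave 7078 and 5268 CPM of these, against 7451, 6443 and 6674 CPM in the same order. Neutrophil markers were called lower in set A in 8 of 11 cases, beside 16.9% of all tested genes. With H2O2, Mmp8 rose and 3 of the 11 fell, and Mmp8 alone gave 845 CPM in imDC_H2O2. The list summed to 972 and 1827 CPM against 566, 1158 and 1321 CPM in the same order. Basophil and mast cell markers fell in 5 of 8 cases with H2O2, beside 4.61% of all tested genes. Of the 8, 7 were called lower in set A, beside 16.9% of all tested genes. The list summed to 11.3 and 26.9 CPM against 34.8, 59.4 and 85.5 CPM in the same order. Macrophage and monocyte markers, which dendritic cells grown with GM-CSF share in part, gave 1 higher and 3 lower of 15 and summed to 33515 and 40219 CPM against 30406 to 33708 CPM. Chil3 alone, which was not called, gave 30671 and 37895 CPM of these with H2O2, against 27191, 31372 and 29922 CPM in imDC, imDC_r1 and imDC_r2. T and natural killer cell markers summed to at most 8.40 CPM and B cell markers to at most 3.48 CPM in any library. Eosinophil markers gave 1 higher and 3 lower of 4 with H2O2. Plasmacytoid markers gave 1 of each among 4, with the defining gene Siglech at 0 in every library. Beside all these marker counts, 3.93% of all tested genes were called higher with H2O2 and 4.61% lower. Fewer cells of a type and less RNA per cell cannot be told apart in such bulk samples. The part of these cell types in the cytokine values was not tested.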

How the data were processed

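Libraries were sequenced as DNA nanoballs, per the labels' protocols. The files hold estimated counts for each gene as the authors deposited them, without normalization, and 8.38% to 9.03% of a library's values were not whole. HISAT, Bowtie2 and GRCm38.p6 appear in the submitters' processing notes with no role or version. Which counter, annotation and strand setting were used is not given in the sources used here, so overlapping or antisense genes could share reads. Gene numbers were matched to symbols in a RefSeq table of GRCm38.p6 (17520 of 17567 rows).

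Counts were rounded, filtered with filterByExpr (minimum count 10, minimum total 15) and scaled by TMM, also for CPM. EdgeR's quasi-likelihood test had terms for set and treatment (2 residual degrees of freedom), with Benjamini-Hochberg adjustment over 12209 genes and calls at 0.05. The SE was the absolute log2 change divided by the root of F. Ratios of libraries carry exact binomial intervals (95%), which cover counting error only. Levels per kilobase used the longest coding transcript in GENCODE, which may differ from what the authors counted. RefSeq promoters were found for 8 of the 10 members. Versions were DESeq2 1.42.0, limma 3.58.1, edgeR 4.0.16 and R 4.3.3.

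The members, the lists, the set term and the rule for named genes were chosen with earlier results of these data known. The rule named all members, in each list the called genes (at most 4 each way by p) and the most abundant gene, and the 3 nearest genes per member. Cebpb and the further list genes, the AP-1 and antioxidant motifs and the marker genes singled out were added after values were seen. Alternatives were RLE scaling, no filter, no set term, the title suffix as a block, DESeq2, limma-voom and leaving out each library.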

Additional observations from a re-analysis of the deposited data

How the results depend on the processing

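With RLE scaling 412 genes were called higher and 584 lower, against 480 and 563, and with limma-voom 473 and 529. Il1rn was the only member called in each of these fits. DESeq2 called 396 and 529 genes and 2 members, Il1rn and Il1a. With no filter on low counts 60 genes were higher and 42 lower and no member was called (Il1rn adjusted p = 0.0592 by edgeR, which tested 16398 genes). With no set term 0 genes were called either way by edgeR, with 853 at an unadjusted p under 0.05, and 0 members, and Tnf stood at log2 -0.23.

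The titles share suffixes between the groups, but no label says that they pair samples. With the suffix as a replicate block (1 residual degree of freedom), 220 genes were higher and 334 lower, with 0 members called and Il12b at log2 -0.13 (Il1rn 0.43, adjusted p = 0.0628 by edgeR). The block term absorbs imDC_r2, so this fit rests on the same libraries as the fit without imDC_r2. Deviations from the group means correlated at 0.81 within the pair without a suffix and at 0.71 within the r1 pair, but also at 0.66 between imDC_r2 and imDC_H2O2_r1.

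Leaving out 1 library at a time gave between 1 and 1248 genes higher, between 0 and 816 lower and between 0 and 2 members called. The lowest counts came without imDC_H2O2_r1 and the highest without imDC. Without imDC or imDC_H2O2 the set term absorbs the other library of set A, and Il1a was called in both fits (adjusted p of 0.0173 and 0.0425 by edgeR). Across these fits the log2 change of Tnf ran from -0.10 to 0.71, Il6 from -0.43 to 0.032, Il12b from -0.32 to 0.66, Il1b from -0.18 to 0.35 and Tgfb1 from -0.19 to 0.13. Il1rn, Il1a, Il23a and Il18 kept their direction in all 11 alternatives. Between 5 and 7 members differed between the sets in every alternative run. With no filter the count stayed at 6, with Il10 called and Il18 not. Depth limits Il10, Il23a and Il18.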
